A study of Mus musculus with 9 samples.

Results

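The DNA replication machinery was followed through 40 genes whose products license replication origins, unwind and copy DNA, make its nucleotides and restore chromatin on the copies. The genes were taken by symbol from a deposited table of 56953 genes, and each of the 40 was found. Its values came from 9 polyA RNA libraries, each made 72 h after adenoviral infection from cultured cardiac fibroblasts of C57BL/6N mice, adult and male. The fibroblasts were cells that attached to the dish after myocytes had settled out of digested hearts. In 3 libraries the virus was Ad-shJP2, which carries a short hairpin RNA named for junctophilin-2, a protein that ties the plasma membrane to the endoplasmic or sarcoplasmic reticulum. In 3 libraries it was Ad-JP2, which expresses junctophilin-2, and in 3 it was the control virus Ad-GFP, which expresses green fluorescent protein. All 9 cultures therefore carried an adenovirus, and no uninfected library was used here. Values are transcripts per 1000000 transcripts (TPM), a share of the library corrected for transcript length, so levels of different genes can be set beside each other.

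Replication begins when the origin recognition complex, Cdc6 and Cdt1 load the ring-shaped MCM2-7 helicase on DNA in G1 phase, a step called licensing. At the start of S phase Cdc45 and the GINS complex join the helicase and open the fork, primase with DNA polymerase alpha lays primers, and polymerases delta and epsilon extend them on the PCNA clamp. Fen1 and DNA ligase 1 then join the lagging strand pieces. Adult cardiac fibroblasts seldom divide in the heart and take up the cell cycle when they are grown in culture. Many of these genes are known targets of E2F transcription factors, which are released at entry into S phase.

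The junctophilin-2 transcript Jph2 was checked first. It stood at 116.5, 123 and 119 TPM in the Ad-shJP2 libraries, 737, 691 and 637 TPM in the Ad-JP2 libraries and 132, 128 and 128 TPM in the Ad-GFP libraries. The log2 difference of Ad-shJP2 from Ad-GFP was -0.11 and did not pass (limma, adjusted p = 0.072), whereas that of Ad-JP2 was 2.40 (adjusted p = 3.1e-08). The labels were therefore not checked by the transcript level in the libraries labelled Ad-shJP2, and every result below on them describes the libraries that carry that label. Approximate depth, recovered from the steps of low values, was 21.3 to 33.3 M reads (M, a count of 1000000) in Ad-shJP2, 37.0 to 41.5 M in Ad-JP2 and 40.6 to 45.8 M in Ad-GFP. By this estimate all 3 Ad-shJP2 libraries were shallower than the other 6. The approximate number of reads behind a single member value ran between 16, for Pola1, and 12040.

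As a look at sequence, 250 bases before the annotated start were read from RefSeq on build GRCm38.p6 for the 32 of 40 members present in that table, 1 window a gene. Where a gene had several annotated starts, the most upstream was taken, and other starts were not searched. The windows were searched on both strands for the E2F-type words TTTCCCGC, TTTGGCGC, TTTCGCGC and TTTGCCGC, for CCAAT, and for the CHR word TTTGAA. An E2F-type word stood in 8 of the 32 member windows (25%), against 1.92% of 27025 windows of all genes in the table. These 8 belonged to Mcm5, Mcm6, Mcm7, Cdc6, Orc1, Gins3, Rfc3 and Pola1. CCAAT stood in 21 member windows (65.6%), against 34.5% of all windows, and the CHR word in 4 (12.5%), against 16.3%. The windows of all genes were not matched to the members in base composition or expression. Among members with a window, an E2F-type word was found in 6 of the 27 that were higher in Ad-shJP2 and in 2 of the 5 that were not called there. A match of letters is not a bound site. The windows of the 4 members with the largest rise in Ad-shJP2 are printed first, followed by Mcm6, which holds 3 E2F-type words, and Pola1, which was called higher in Ad-JP2; the last 2 were picked after their values were seen. Capitals mark E2F-type and CCAAT matches, and each line reads 5′ to 3′ on the strand of its gene.
Orc1: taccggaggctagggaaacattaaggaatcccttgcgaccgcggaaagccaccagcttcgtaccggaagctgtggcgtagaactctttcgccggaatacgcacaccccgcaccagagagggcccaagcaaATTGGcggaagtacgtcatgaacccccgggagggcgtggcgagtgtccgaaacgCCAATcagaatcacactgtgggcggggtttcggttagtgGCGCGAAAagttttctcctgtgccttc
Chaf1b: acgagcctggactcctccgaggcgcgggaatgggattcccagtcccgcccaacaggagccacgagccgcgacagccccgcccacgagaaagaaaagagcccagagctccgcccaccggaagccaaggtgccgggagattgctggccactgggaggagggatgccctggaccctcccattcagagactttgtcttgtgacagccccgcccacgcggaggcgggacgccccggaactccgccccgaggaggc
Cdt1: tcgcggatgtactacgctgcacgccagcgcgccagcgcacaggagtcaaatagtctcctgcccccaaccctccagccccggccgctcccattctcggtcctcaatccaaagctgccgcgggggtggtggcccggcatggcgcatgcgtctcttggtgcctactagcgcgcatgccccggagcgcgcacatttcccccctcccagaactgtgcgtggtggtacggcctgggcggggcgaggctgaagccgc
Lig1: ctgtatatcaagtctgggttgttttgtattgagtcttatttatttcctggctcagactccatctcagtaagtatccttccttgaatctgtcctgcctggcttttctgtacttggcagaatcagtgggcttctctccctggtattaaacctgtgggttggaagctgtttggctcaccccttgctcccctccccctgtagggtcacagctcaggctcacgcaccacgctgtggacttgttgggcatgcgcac
Mcm6: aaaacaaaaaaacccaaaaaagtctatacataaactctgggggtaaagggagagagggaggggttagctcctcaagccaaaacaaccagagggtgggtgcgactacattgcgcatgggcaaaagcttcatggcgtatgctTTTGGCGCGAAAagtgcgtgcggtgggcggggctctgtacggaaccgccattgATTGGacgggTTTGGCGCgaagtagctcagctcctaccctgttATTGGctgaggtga
Pola1: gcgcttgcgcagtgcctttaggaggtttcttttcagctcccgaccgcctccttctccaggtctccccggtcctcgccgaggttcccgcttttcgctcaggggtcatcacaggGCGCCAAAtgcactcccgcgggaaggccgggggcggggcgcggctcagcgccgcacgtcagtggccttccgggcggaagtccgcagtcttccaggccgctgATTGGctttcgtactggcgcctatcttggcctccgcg
These windows lie at chr4:108579204-108579453 (+ strand) for Orc1, chr16:93883651-93883900 (+) for Chaf1b, chr8:122567765-122568014 (+) for Cdt1, chr7:13276925-13277174 (+) for Lig1, chr1:128359706-128359955 (- strand) for Mcm6 and chrX:93632156-93632405 (-) for Pola1. Orc1 carries 1 E2F-type word close to its start and 2 CCAAT words upstream. In Mcm6 the upstream pair of E2F-type words overlap, and 2 CCAAT words flank the third. The windows of Chaf1b, Cdt1 and Lig1, whose rises were also among the 4 largest, hold none of the words marked.

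In Ad-shJP2 against Ad-GFP, 31 of the 40 replication genes rose, none fell, and 9 did not pass (limma on log2(TPM + 1), adjusted p under 0.05 over 14215 genes). Among all genes tested, 21.8% were higher and 37.7% lower in the same comparison. The median log2 difference of the 40 genes was 0.73, while the median of all genes tested was -0.11. For the 31 that rose, the ratio of mean TPM ran between 1.28 and 3.75, and in 10 of them it was 2 or more. Each of the 31 was higher in all 3 Ad-shJP2 libraries than in any Ad-GFP library, which follows largely from the call. Over the 40 genes, called or not, 32 stood wholly above the Ad-GFP libraries and 1, Mcm4, wholly below. Among all genes tested, 24.5% stood wholly above and 40.9% wholly below. Summed over the 40 genes, the level was 1787 to 1805 TPM in Ad-shJP2, 1017 to 1037 TPM in Ad-JP2 and 1048 to 1055 TPM in Ad-GFP. In libraries from whole cultures, more replicating cells and more transcript per cell cannot be told apart.

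Of the 40 genes, 39 were at 1 TPM or more in every library. Pola1 reached that level in the Ad-JP2 libraries alone and so entered the test through them. Replicates lay close together, with a median coefficient of variation of 4.36% in Ad-shJP2, 4.28% in Ad-JP2 and 4.98% in Ad-GFP for the members, against 7.81%, 6.77% and 6.13% for all genes tested.

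**Figure D1:**
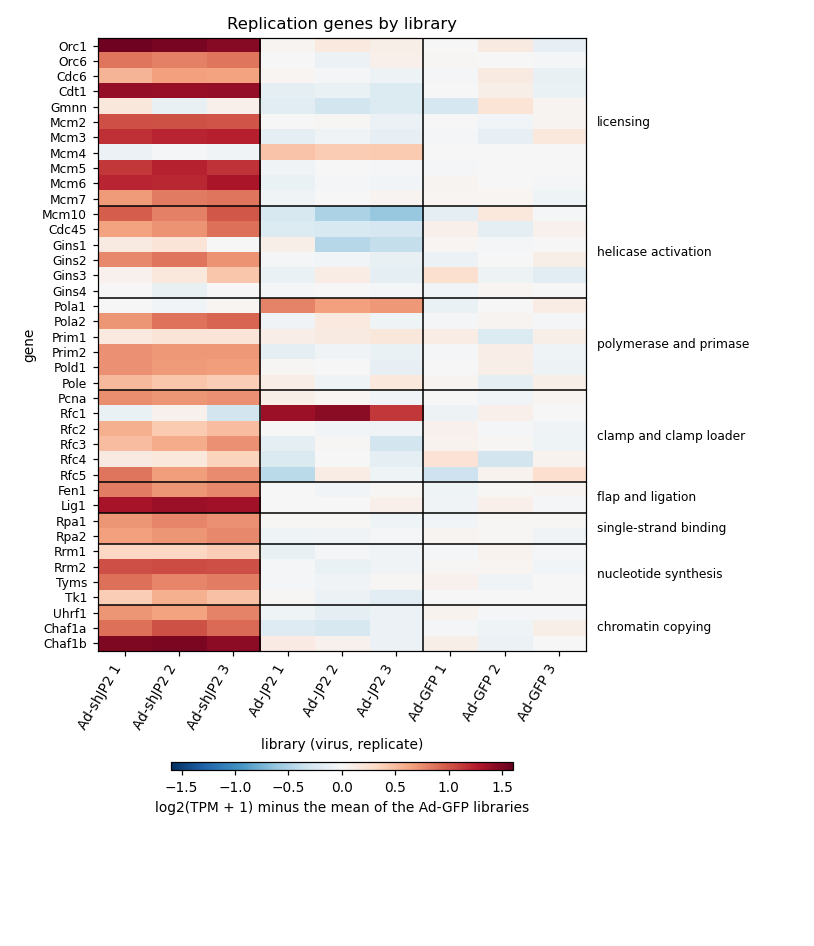
Each cell is the log2(TPM + 1) of a replication gene (row) in a library (column) minus the mean of the 3 Ad-GFP libraries, with horizontal lines between the 8 role classes. The 3 Ad-shJP2 columns are red for 31 called genes, whereas in the Ad-JP2 columns Rfc1, Pola1 and Mcm4 stand out in red and Mcm10 in blue.

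The heat map of members by library shows the same rows raised in each of the 3 Ad-shJP2 libraries, with no single library carrying the change. Other features of the cultures moved as well. Of 10 cardiac fibroblast markers, 9 were lower and 1 higher in Ad-shJP2, and their summed level was 7490 to 7726 TPM there, 11142 to 11902 TPM in Ad-JP2 and 11334 to 11440 TPM in Ad-GFP. For the 10 markers of macrophages and leukocytes, the call was higher in 6 and lower in 3, and the sum was 3187 to 3235 TPM in Ad-shJP2, 2519 to 2560 TPM in Ad-JP2 and 2733 to 2772 TPM in Ad-GFP. Endothelial markers summed to 31.0 to 42.3 TPM in Ad-shJP2, 37.3 to 41.7 TPM in Ad-JP2 and 39.0 to 40.5 TPM in Ad-GFP. Cardiomyocyte markers summed to 20.4 to 22.9 TPM in Ad-shJP2, 26.5 to 32.6 TPM in Ad-JP2 and 31.4 to 33.3 TPM in Ad-GFP, with 3 of 7 (Myh6, Ttn and Ryr2) under 1 TPM in every library. Pericyte and smooth muscle markers, 4 of 6 of them under 1 TPM in every library, summed to 6.94 to 7.18 TPM in Ad-shJP2, 11.3 to 12.5 TPM in Ad-JP2 and 10.6 to 11.4 TPM in Ad-GFP. Epicardial and mesothelial markers summed to 22.3 to 25.3 TPM in Ad-shJP2, 26.6 to 29.0 TPM in Ad-JP2 and 25.2 to 26.3 TPM in Ad-GFP. Several sums were mostly a single gene. In Ad-shJP2 Vim averaged 5022 TPM of the fibroblast sum, Lyz2 2023 TPM of the macrophage sum and Tnnt2 19.7 TPM of the cardiomyocyte sum. Krt19, the epicardial marker called higher, averaged 17.5 TPM in Ad-shJP2 and 7.19 TPM in Ad-GFP. Of the tested markers, 2 of 6 endothelial, 2 of 2 cardiomyocyte, 2 of 2 pericyte and 4 of 5 epicardial ones were lower in Ad-shJP2 and 1 epicardial one was higher. Among all genes tested, 37.7% were lower and 21.8% higher, so the endothelial count lay near the common share. Lum, Ptprc, Tek, Msln and Lrrn4 stayed under 1 TPM in every Ad-shJP2 library and so entered the test through the other groups. Their lower calls therefore add nothing to the counts of their lists. After a correction for GC content and length, Ptprc turned from lower to higher, Col3a1, Tek, Vwf and Myh11 lost their calls, and Cdh5 was called higher. No marker of any list was at 0 in every library. The part of these shifts in the replication result was not tested.

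Of the 11 licensing genes, 9 rose. The largest rise of the 40 was in Orc1, the subunit of the origin recognition complex whose level varies most over the cell cycle. Orc1 had 7.85, 7.60 and 7.30 TPM in the Ad-shJP2 libraries, 2.10, 2.36 and 2.21 TPM in the Ad-JP2 libraries and 2.00, 2.32 and 1.75 TPM in the Ad-GFP libraries. All 3 Ad-shJP2 values stood above the other 6, at a mean of 7.58 ± 0.277 TPM against 2.02 ± 0.286 TPM in Ad-GFP (SD, n = 3 each), a log2 difference of 1.51 (SE 0.09, limma adjusted p = 9.1e-07). Orc6, another subunit of the complex, averaged 51.4 ± 1.12 TPM in Ad-shJP2 and 28.3 ± 0.582 TPM in Ad-GFP, a log2 difference of 0.84. The loader Cdc6 averaged 5.35 ± 0.277 TPM in Ad-shJP2 and 3.15 ± 0.372 TPM in Ad-GFP (0.62 on the log2 scale).

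Cdt1, which brings the MCM ring to the origin, had 30.9, 30.5 and 30.9 TPM in Ad-shJP2, 9.74, 10.2 and 9.28 TPM in Ad-JP2 and 11.1, 11.8 and 10.2 TPM in Ad-GFP. The Ad-shJP2 values lay 2.79-fold above Ad-GFP by their means, with a log2 difference of 1.40 (SE 0.06, limma adjusted p = 1.4e-07). Gmnn encodes geminin, the inhibitor that binds Cdt1 after licensing, and it did not pass. Gmnn had 19.9, 16.0 and 18.5 TPM in Ad-shJP2, 15.4, 14.1 and 14.9 TPM in Ad-JP2 and 14.4, 20.5 and 18.04 TPM in Ad-GFP, with overlapping libraries and a log2 difference of 0.05 (SE 0.12, limma adjusted p = 0.77). The ratio of Cdt1 to Gmnn TPM was therefore 1.55, 1.90 and 1.67 in Ad-shJP2, 0.634, 0.724 and 0.624 in the Ad-JP2 libraries, and 0.773, 0.576 and 0.565 in the Ad-GFP libraries. In each Ad-shJP2 library Cdt1 exceeded Gmnn, while in each of the other 6 libraries it was the lower of the pair. The exact two-sided permutation p for the ratio in Ad-shJP2 against Ad-GFP was 0.1, the smallest that 3 against 3 libraries allow.

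Of the 6 subunits of the MCM2-7 helicase, 5 rose in Ad-shJP2 and Mcm4 did not. Mcm6 had 72.1, 71.1 and 76.6 TPM in Ad-shJP2, 28.1, 29.9 and 29.5 TPM in Ad-JP2 and 31.3, 30.2 and 29.6 TPM in Ad-GFP, a log2 difference of 1.24 between Ad-shJP2 and Ad-GFP (SE 0.04, limma adjusted p = 3.9e-08). Mcm3 had 73.4, 76.2 and 77.5 TPM in Ad-shJP2, 29.0, 30.8 and 29.1 TPM in Ad-JP2 and 31.4, 29.2 and 36.1 TPM in Ad-GFP, a log2 difference of 1.21 (SE 0.07, limma adjusted p = 8.1e-07). For both, the Ad-shJP2 libraries were far above the other groups, which overlapped each other. Mcm5, Mcm2 and Mcm7 averaged 65.1 ± 2.25, 42.4 ± 0.493 and 37.0 ± 2.41 TPM in Ad-shJP2, and 28.3 ± 0.282, 20.4 ± 0.616 and 21.0 ± 0.880 TPM in Ad-GFP, with log2 differences of 1.17, 1.02 and 0.79.

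Mcm4 had 14.1, 14.7 and 14.5 TPM in Ad-shJP2, 21.1, 20.4 and 20.5 TPM in Ad-JP2 and 15.2, 15.0 and 15.1 TPM in Ad-GFP. Its Ad-shJP2 values all lay just under the Ad-GFP values, a log2 difference of -0.06 that did not pass (SE 0.04, limma adjusted p = 0.23). The 6 subunits form a ring with 1 copy of each, and their summed transcript level was 300.3 to 313 TPM in Ad-shJP2, 146 to 151 TPM in Ad-JP2 and 144 to 150.3 TPM in Ad-GFP. Mcm4 made up 4.69% of that sum in Ad-shJP2, against 14.0% in Ad-JP2 and 10.3% in Ad-GFP. The most abundant subunit exceeded the least abundant by 5.17 to 5.35 times in Ad-shJP2, 1.45 to 1.54 times in Ad-JP2 and 2.01 to 2.38 times in Ad-GFP, groups that did not overlap. After a correction for GC content and length, the Mcm4 difference between Ad-shJP2 and Ad-GFP was 0.44 (limma adjusted p = 3.0e-05), the other way from the value as deposited, and Mcm6 stood at 1.58.

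**Figure D2:**
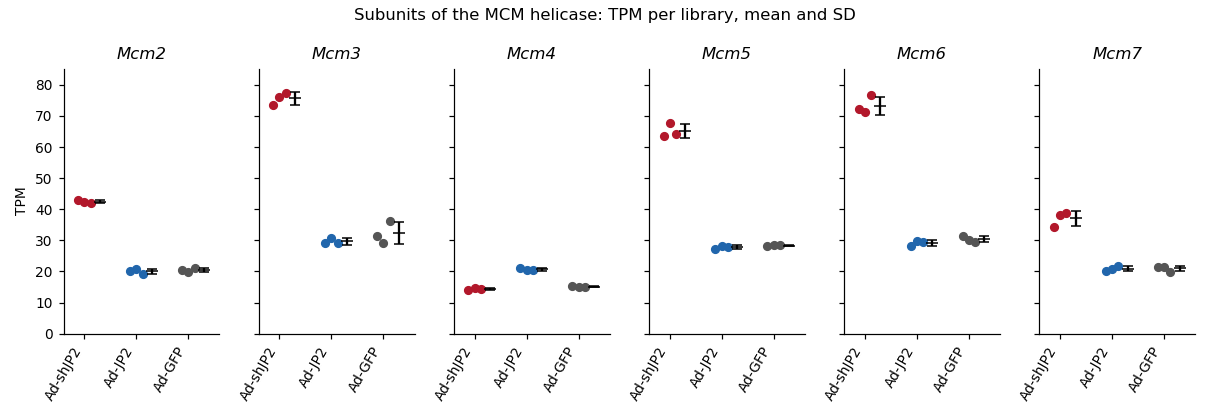
Points are TPM per library for the 6 subunits of the MCM helicase on a common axis, by virus, with the mean and SD (n = 3) beside them. In 5 panels the Ad-shJP2 points stand clear of the rest, at 34.3 to 77.5 TPM, while in the Mcm4 panel they lie at 14.1 to 14.7 TPM and the Ad-JP2 points are highest.

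The plot of MCM subunits by virus makes the exception visible: in Ad-JP2 and Ad-GFP, Mcm4 sits nearer the other subunits than in Ad-shJP2, where they separate.

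Among the helicase activators, 3 of 6 rose in Ad-shJP2. Mcm10, which acts with Cdc45 and GINS as the helicase starts to unwind, had 10.5, 9.28 and 10.8 TPM in Ad-shJP2, 3.94, 3.14 and 2.88 TPM in Ad-JP2 and 4.27, 5.64 and 4.82 TPM in Ad-GFP. The Ad-shJP2 mean was 2.08 times that of Ad-GFP, with a log2 difference of 0.93 (SE 0.12, limma adjusted p = 1.3e-04). Cdc45 averaged 11.5 ± 1.06 TPM in Ad-shJP2 and 6.48 ± 0.658 TPM in Ad-GFP, a log2 difference of 0.75. Of the 4 GINS genes, whose products form 1 complex, Gins2 rose, with 81.6 ± 4.15 TPM in Ad-shJP2 and 47.1 ± 3.24 TPM in Ad-GFP (0.78 on the log2 scale). Gins1, Gins3 and Gins4 did not pass, at log2 differences of 0.12, 0.23 and -0.04. Gins4 averaged 29.6 ± 1.51 TPM in Ad-shJP2 and 30.4 ± 0.760 TPM in Ad-GFP.

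Of the polymerase and primase genes, 4 of 6 rose. Pola2, the regulatory subunit of polymerase alpha, had 18.3, 20.6 and 21.4 TPM in Ad-shJP2, 10.3, 12.1 and 10.2 TPM in Ad-JP2 and 10.6, 11.2 and 10.5 TPM in Ad-GFP. Every Ad-shJP2 value exceeded every Ad-GFP value, and the log2 difference was 0.84 (SE 0.08, limma adjusted p = 2.0e-05). The primase subunit Prim2 and the catalytic subunits of polymerases delta and epsilon, Pold1 and Pole, rose by 0.71, 0.69 and 0.45 on the log2 scale. Pola1, the catalytic subunit of polymerase alpha, was the least abundant of the 40, with 0.403, 0.358 and 0.438 TPM in Ad-shJP2 and 0.309, 0.395 and 0.521 TPM in Ad-GFP, overlapping values that did not pass. Prim1, the catalytic primase subunit, did not pass either (7.52 ± 0.168 TPM in Ad-shJP2, 6.52 ± 0.941 TPM in Ad-GFP, log2 difference 0.19). After the GC and length correction both were called higher in Ad-shJP2, Pola1 at 0.65 (limma adjusted p = 5.0e-04) and Prim1 at 0.48 (adjusted p = 0.0016), and Pole stood at 0.87.

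The sliding clamp gene Pcna averaged 131 ± 1.84 TPM in Ad-shJP2 and 78.6 ± 2.02 TPM in Ad-GFP, a log2 difference of 0.73. A pseudogene, Pcna-ps2, was listed at means of 63.6 TPM in Ad-shJP2 and 38.6 TPM in Ad-GFP, so reads may be shared between the 2 rows. Rfc5, a small subunit of the RFC complex that opens the clamp and loads it, had 29.3, 25.7 and 27.3 TPM in Ad-shJP2, 11.5, 17.3 and 15.0 TPM in Ad-JP2 and 12.4, 16.5 and 19.3 TPM in Ad-GFP. The Ad-shJP2 libraries were the highest, but Ad-GFP was spread widely, and the log2 difference was 0.76 (SE 0.17, limma adjusted p = 0.0039). Rfc2 and Rfc3 rose by 0.49 and 0.61, while Rfc4 (0.22) and the large subunit Rfc1 (-0.11) did not pass as deposited. After the GC and length correction both were called higher, Rfc4 at 0.48 (limma adjusted p = 0.011) and Rfc1, with its sign turned, at 0.44 (adjusted p = 0.012).

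Both genes of flap removal and ligation rose. Lig1, the ligase that seals lagging strand pieces, had 37.4, 38.7 and 37.9 TPM in Ad-shJP2, 14.3, 14.3 and 15.2 TPM in Ad-JP2 and 13.7, 15.2 and 14.2 TPM in Ad-GFP, with a log2 difference of 1.34 between Ad-shJP2 and Ad-GFP (SE 0.05, limma adjusted p = 6.0e-08). The groups were well apart, and the flap endonuclease Fen1 rose by less (34.3 ± 1.32 TPM in Ad-shJP2, 19.7 ± 0.822 TPM in Ad-GFP, log2 difference 0.77). Both tested subunits of RPA, which coats single-stranded DNA, rose. Rpa1 had 148, 155 and 149.9 TPM in Ad-shJP2, 91.2, 91.0 and 85.8 TPM in Ad-JP2 and 87.2, 91.2 and 91.0 TPM in Ad-GFP (0.74 on the log2 scale, limma adjusted p = 2.5e-07), and Rpa2 differed by 0.71.

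All 4 nucleotide synthesis genes rose. Rrm2, the subunit of ribonucleotide reductase whose supply follows S phase, had 149, 150.4 and 149.7 TPM in Ad-shJP2, 71.2, 67.5 and 69.4 TPM in Ad-JP2 and 73.3, 74.0 and 70.0 TPM in Ad-GFP. The Ad-shJP2 libraries were nearly identical to each other and 2.07 times the Ad-GFP mean, a log2 difference of 1.04 (SE 0.03, limma adjusted p = 1.9e-08). Its partner Rrm1, the most abundant of the 40, had 200.2, 199 and 208 TPM in Ad-shJP2, 146, 157 and 153 TPM in Ad-JP2 and 156, 165 and 156 TPM in Ad-GFP, a log2 difference of 0.35 (SE 0.04, limma adjusted p = 3.2e-05). That was the smallest rise among the 31 as deposited; after the GC and length correction Rrm1 differed by 0.88 and Rrm2 by 1.25, and Tk1 had the smallest called difference (0.35). The ratio of Rrm2 to Rrm1 TPM averaged 0.740 in Ad-shJP2, 0.457 in Ad-JP2 and 0.457 in Ad-GFP. Thymidylate synthase, Tyms, averaged 147 ± 5.14 TPM in Ad-shJP2 and 82.5 ± 3.85 TPM in Ad-GFP (0.82), and reads may be shared with the pseudogene Tyms-ps, listed at 7.80 TPM in Ad-shJP2 and 4.76 TPM in Ad-GFP. Thymidine kinase 1, Tk1, which salvages thymidine, averaged 45.6 ± 2.85 TPM in Ad-shJP2 and 32.5 ± 0.220 TPM in Ad-GFP (0.47).

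All 3 chromatin copying genes rose. Chaf1b, a subunit of the CAF-1 chaperone that deposits histones on new DNA, had 46.7, 46.9 and 44.4 TPM in Ad-shJP2, 17.4, 16.6 and 14.8 TPM in Ad-JP2 and 17.0, 14.9 and 15.8 TPM in Ad-GFP. The Ad-shJP2 mean was 2.89 times that of Ad-GFP, and no library overlapped, with a log2 difference of 1.48 (SE 0.07, limma adjusted p = 2.0e-07). Its partner Chaf1a and Uhrf1, which guides maintenance of DNA methylation, rose by 0.94 and 0.71.

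In Ad-JP2 against Ad-GFP, 3 of the 40 genes rose, 1 fell and 36 did not pass. Of all genes tested, 13.4% were higher and 1.64% lower, and the median log2 difference was -0.04 over the 40 genes and 0.01 over all genes. The genes that rose were Rfc1, Pola1 and Mcm4, each the lowest member of its complex in the control libraries, and the gene that fell was Mcm10. Gins3, the lowest of the GINS genes in the control libraries at a mean of 2.43 TPM, did not pass (-0.05 on the log2 scale). Pola1 entered the test because of its Ad-JP2 values, so its call adds nothing to the count.

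Rfc1, the large subunit of the clamp loader, had 1.33, 1.61 and 1.04 TPM in Ad-shJP2, 5.42, 5.79 and 4.45 TPM in Ad-JP2 and 1.35, 1.64 and 1.503 TPM in Ad-GFP. The Ad-JP2 values were 3.48 times those of Ad-GFP by the means, with a log2 difference of 1.31 (SE 0.12, limma adjusted p = 1.2e-04), while Rfc2 to Rfc5 did not pass. Set against the mean of Rfc2 to Rfc5, Rfc1 stood at 0.0415 in Ad-shJP2, 0.252 in Ad-JP2 and 0.0685 in Ad-GFP. After the GC and length correction the Rfc1 difference in Ad-JP2 was 0.96 and still passed (limma adjusted p = 0.0013).

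Pola1 had 1.44, 1.22 and 1.27 TPM in Ad-JP2, against 0.309, 0.395 and 0.521 TPM in Ad-GFP, so the Ad-JP2 mean was 3.21 times the Ad-GFP mean. On the log2(TPM + 1) scale, which understates the change of so low a gene, the difference was 0.72 (SE 0.10, limma adjusted p = 0.0014), and 0.21 after the GC and length correction (adjusted p = 0.22). The ratio of Pola1 to Pola2 TPM averaged 0.02 in Ad-shJP2, 0.121 in Ad-JP2 and 0.0380 in Ad-GFP. Mcm4 differed by 0.43 (SE 0.04, limma adjusted p = 1.6e-04), its Ad-JP2 libraries all above the other 6, and by 0.10 after the correction (adjusted p = 0.18).

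Mcm10 averaged 3.32 ± 0.555 TPM in Ad-JP2 and 4.91 ± 0.689 TPM in Ad-GFP, a log2 difference of -0.45 (SE 0.12, limma adjusted p = 0.032). Its groups did not overlap, yet the call was lost when Ad-GFP replicate 2 (limma adjusted p = 0.113) or replicate 3 (0.083), or Ad-JP2 replicate 2 (0.10) or replicate 3 (0.10), was left out. Over its 18 alternatives the adjusted p ran between 0.0089 and 0.113, with the same sign in each. As deposited, Mcm10 was the single member called in both comparisons with Ad-GFP, higher in Ad-shJP2 and lower in Ad-JP2; these comparisons share the Ad-GFP libraries. After the GC and length correction 8 members had that pair of calls, namely Mcm6, Mcm10, Cdc45, Prim2, Pcna, Rrm1, Rrm2 and Chaf1a. The share of all genes with that pair of calls was not counted in either setting, so neither count is read as a feature of the members.

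**Figure D3:**
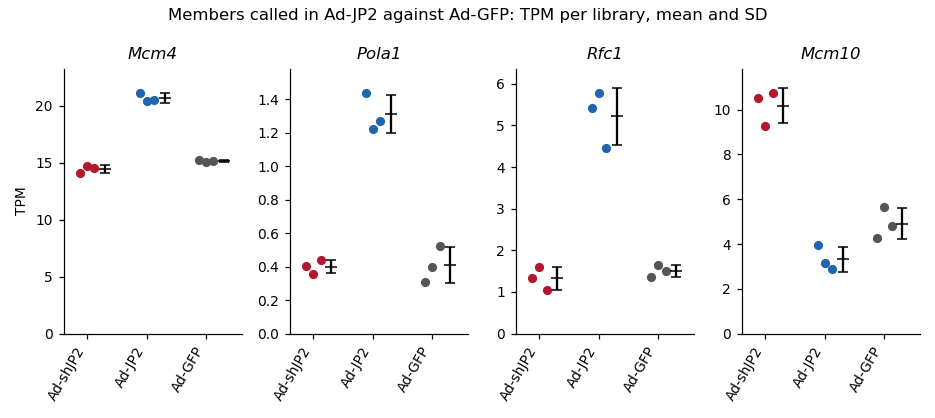
Points are TPM per library, by virus, for the 4 replication genes called in Ad-JP2 against Ad-GFP, with mean and SD (n = 3) and an axis of its own for each gene. Ad-JP2 is highest for Mcm4, Pola1 and Rfc1, whose Ad-shJP2 and Ad-GFP points lie close together, and lowest for Mcm10.

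The plot of the 4 called genes shows low absolute levels for Pola1 and Rfc1, whose Ad-JP2 means were 1.31 ± 0.114 and 5.22 ± 0.690 TPM. Base composition varied with these results. The transcripts of the 40 genes had a median GC content of 50.3%, between 41.8% and 60.7%, and Pola1 had the lowest. In Ad-shJP2 against Ad-GFP, the 10 members of lowest GC had a median log2 difference of 0.29 as deposited and 0.77 after correction, and the 10 of highest GC 0.81 and 0.82. With the correction, 36 of the 40 were higher and 0 lower in Ad-shJP2, against 28.8% and 27.3% of all genes. In Ad-JP2 against Ad-GFP, 1 was higher and 8 lower with the correction, against 6.38% and 7.75% of all genes. The corrected values of Pcna and Rrm1 in Ad-JP2 were -0.28 and -0.46, whereas the values as deposited were 0.03 and -0.06. Whether the link with GC content came from the cells or the libraries was not tested.

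**Figure D4:**
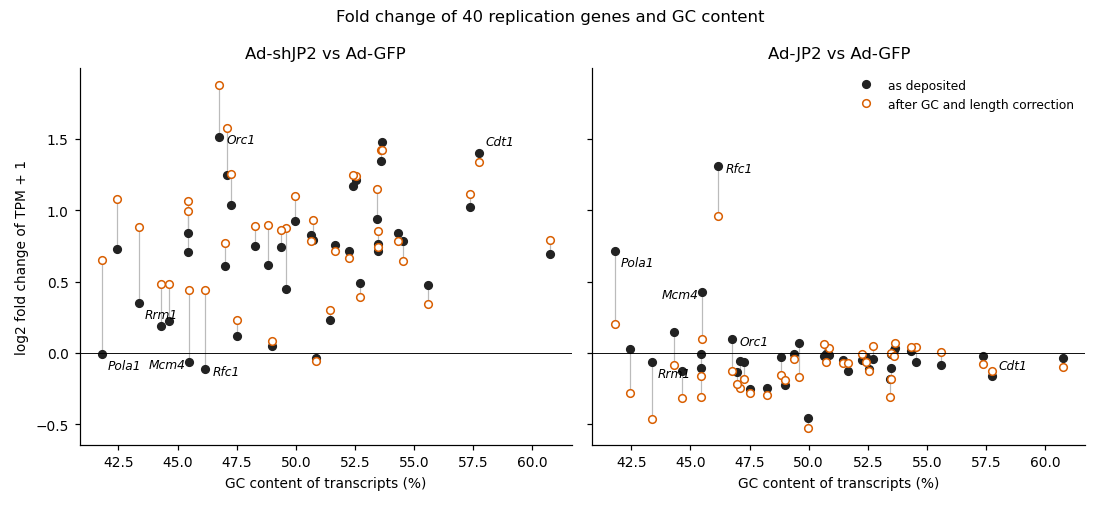
Each replication gene is placed by the GC content of its transcripts (%) and its log2 fold change as deposited (filled) or after GC and length correction (open), for Ad-shJP2 and Ad-JP2 against Ad-GFP. At low GC the open symbols lie above the filled ones in the Ad-shJP2 panel and below them in the Ad-JP2 panel, and at high GC the pairs lie close.

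The plot against GC content shows that Pola1, Mcm4 and Rfc1, the 3 genes that rose in Ad-JP2, lie at its low end. Cdt1, Chaf1b and Lig1, with large rises in Ad-shJP2, lie in its upper range and hardly moved with the correction, at 1.34, 1.42 and 1.42.

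Between Ad-JP2 and Ad-shJP2 directly, 3 members were higher and 33 lower in Ad-JP2, against 40.3% and 24.1% of all genes tested. The median log2 difference was -0.79 over the 40 genes and 0.10 over all genes. The 3 that were higher were Rfc1 (1.42), Pola1 (0.72) and Mcm4 (0.49), and with the correction Pola1 and Mcm4 were lower (-0.45 and -0.34). These are the genes that rose against Ad-GFP, but both comparisons use the same Ad-JP2 libraries. Pola1 entered the test because of its Ad-JP2 values, so its higher call adds nothing to the count. As deposited, the lowest values relative to Ad-shJP2 were in Cdt1 (-1.56), Chaf1b (-1.44) and Orc1 (-1.41), and with the correction they were in Orc1 (-2.001), Mcm6 (-1.82) and Mcm10 (-1.62). In the limma F-test over the 3 groups, 34 of the 40 differed, against 63.7% of all genes; Gmnn, Gins1, Gins3, Gins4, Prim1 and Rfc4 did not pass.

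Further genes of the pathway, in 4 lists of 59 genes of which 57 were tested, moved in both directions. In Ad-shJP2 against Ad-GFP, 27 of the 57 were higher and 13 lower as deposited, against 21.8% and 37.7% of all genes tested. With median-of-ratios scaling, quantile scaling and the GC and length correction, 29, 29 and 34 were higher and 6, 7 and 5 lower. Other chromatin copying genes rose in 7 of 8, led by the histone mRNA binding protein Slbp (60.5 ± 7.76 TPM in Ad-shJP2, 23.7 ± 0.540 TPM in Ad-GFP, log2 difference 1.31). The histone chaperone Asf1b (1.05), the maintenance DNA methyltransferase Dnmt1 (0.94) and the chromatin remodeller Hells (0.83) followed. Of 10 other nucleotide supply genes, 6 rose and 2 fell. Shmt1, which makes one-carbon units for thymidylate, averaged 13.1 ± 0.325 TPM in Ad-shJP2 and 3.74 ± 0.290 TPM in Ad-GFP (1.57), and Dctpp1 and Dut, which clear unwanted nucleotides, rose by 0.96 and 0.60. Dck, the kinase that salvages deoxycytidine, fell, with 3.05 ± 0.411 TPM in Ad-shJP2 and 6.98 ± 0.597 TPM in Ad-GFP (-0.98).

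Other fork and polymerase genes rose in 10 of 22 and fell in 5. The nuclease and helicase Dna2 (1.05), the fork protein Wdhd1 (0.68) and Tipin (0.50) rose, while the checkpoint mediator Clspn fell (0.749 ± 0.185 TPM in Ad-shJP2, 1.79 ± 0.521 TPM in Ad-GFP, -0.66). Other licensing and firing genes rose in 4 of 17 and fell in 6, near the shares of all genes tested (21.8% and 37.7%). Donson (0.98) and the helicase Recql4 (0.72) rose, and Dtl, the substrate receptor of the ligase that marks Cdt1 for degradation, fell, with 1.05 ± 0.0737 TPM in Ad-shJP2 and 2.21 ± 0.371 TPM in Ad-GFP (-0.64, limma adjusted p = 5.5e-04). Topbp1, a scaffold for firing, fell too (-0.63 on the same scale). With the GC and length correction neither passed, at 0.00 for Dtl and -0.14 for Topbp1.

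**Figure D5:**
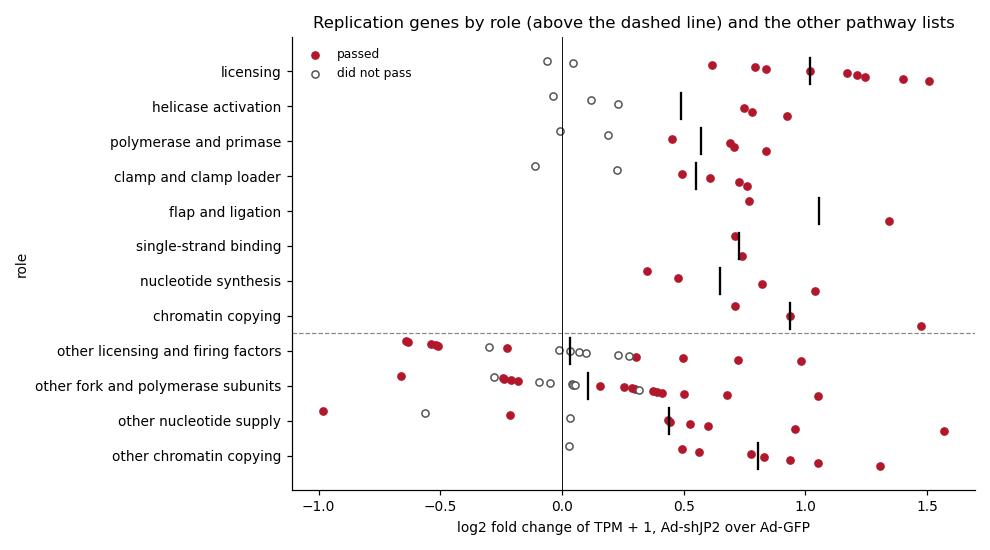
Each point is the log2 fold change of TPM + 1 of a gene, Ad-shJP2 over Ad-GFP, by role, with the replication genes above the dashed line and the 4 other pathway lists below it. Filled points passed and open points did not, and bars are medians; no filled point above the line lies left of 0, whereas 13 below it do.

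The plot by role sets the 40 genes beside the rest of the pathway. In Ad-JP2 against Ad-GFP, 5 of the 57 related genes were higher and 1 was lower, against 13.4% and 1.64% of all genes tested. Top2a, the topoisomerase that untangles replicated chromosomes, was chosen after its values were seen; it averaged 13.6 ± 1.11 TPM in Ad-JP2 and 4.33 ± 0.332 TPM in Ad-GFP, a log2 difference of 1.45 (limma adjusted p = 4.0e-05), and 0.99 after the correction. Dbf4, which activates the kinase that fires origins, was higher in Ad-JP2 (19.1 ± 0.615 TPM, against 12.6 ± 0.322 TPM in Ad-GFP) and lower in Ad-shJP2 (8.41 ± 0.982 TPM), with log2 differences of 0.56 and -0.54. It was also chosen after its values were seen, and with the correction neither difference passed (0.25 and -0.14).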

How the data were processed

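The deposited values are TPM per gene, computed by the authors; per the submitters' processing notes the tools were DRAGEN, Salmon and DESeq2 on build GRCm39, with roles and versions not given in the sources used here. Libraries were stranded polyA libraries, per the labels' protocols. Of 56953 rows, 29601 were at 0 in all 9 libraries. The test took in 14215 genes, those that reached 1 TPM in 3 libraries or more. One model of 3 group means was fitted to log2(TPM + 1) with limma 3.58.1 in R 4.3.3 and a mean-variance trend, and two-sided p-values were adjusted by Benjamini-Hochberg over all genes tested. A call is an adjusted p under 0.05. Fold ratios are ratios of mean TPM, and a symbol on several lines took the line of highest mean. Read depth was recovered from the steps of TPM multiplied by effective length and is approximate: low genes fell within 0.1 of whole reads in 95.4% of cases for the third Ad-GFP library and in 33.0% to 58.3% elsewhere. A count of 3 reads on 1000 bases equals 0.0871 to 0.175 TPM, for counting error only.

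The GC and length correction removed a spline fit on both from each library. GC content came from transcripts of GENCODE M21 (GRCm38), to which 14025 of 14215 genes and all 40 members matched. Gene length was that of the deposited table. The labels do not say that replicates came from separate cultures or animals, so p-values measure the spread between these libraries, which may be technical. The members and lists were chosen with earlier results of these data known. Values per library were given for members called in Ad-JP2 against Ad-GFP, for the largest called change in each role class in Ad-shJP2 (4 for licensing) and for the most and least abundant member; Gmnn was added after its values were seen. From each list of other pathway genes, up to 4 with the largest called change were named.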

Additional observations from a re-analysis of the deposited data

How the results depend on the processing

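The count of members higher in Ad-shJP2 than in Ad-GFP stayed within 1.5 times of 31 under every alternative run: a pseudocount of 0.1, no filter, a filter of 5 TPM, median-of-ratios or quantile scaling, GC and length correction, a replicate block, no trend, only the 2 groups compared and each library left out. Their median of 0.73 was 0.85, 0.83 and 0.86 with median-of-ratios, quantile and GC and length correction, which moved the median of all genes by 0.10, 0.14 and 0.12. The share of all calls that were higher was 36.6% as deposited and 49.0%, 52.4% and 51.3% under those 3. For Ad-JP2 against Ad-GFP it was 89.1%, and 81.9%, 66.2% and 45.2%; for Ad-JP2 against Ad-shJP2 it was 62.6%, and 50.5%, 42.0% and 46.6%. In the same order, related genes lower in Ad-shJP2 numbered 6, 7 and 5 in place of 13, and the member median of Ad-JP2 against Ad-shJP2 was -0.92, -0.96 and -0.99 in place of -0.79.

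For Ad-JP2 against Ad-GFP, the 3 members higher became 1 with the 5 TPM filter and 1 with GC and length correction. The 1 lower became 0 without a filter, 6 with quantile scaling, 8 with GC and length correction and 0 with only 2 groups. The median of -0.04 became -0.11 with quantile scaling and -0.089 with GC and length correction. Related genes higher (5) became 3 and 1 under these 2, and lower (1) became 3 and 6. For Ad-JP2 against Ad-shJP2, the 3 members higher became 1 with the 5 TPM filter and 1 with GC and length correction, and the 16 related genes higher became 10 with quantile scaling and 6 with GC and length correction. The cause was not tested, apart from the 5 TPM filter, under which Pola1 and Rfc1 were not tested.

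Among values called before or after the change of setting, signs turned for Mcm4 (0.44 in Ad-shJP2 against Ad-GFP, -0.34 in Ad-JP2 against Ad-shJP2), Pola1 (0.65 and -0.45 in the same comparisons), Pcna (-0.28 in Ad-JP2 against Ad-GFP) and Rfc1 (0.44 in Ad-shJP2 against Ad-GFP) with GC and length correction, and for Gins4 (-0.12 in Ad-JP2 against Ad-shJP2) with quantile scaling. With GC and length correction, called or not, 3 members changed sign in Ad-shJP2 against Ad-GFP, 11 in Ad-JP2 against Ad-GFP and 2 in Ad-JP2 against Ad-shJP2. Over all gene values and alternatives, 2025 kept direction and side of the threshold, 58 changed sign without being called in either setting, 32 gained a call, 26 lost one and 7 changed sign with a call.

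Leaving out each library in turn gave 31 to 32 members higher and 0 lower in Ad-shJP2 against Ad-GFP (median 0.72 to 0.75; related genes 25 to 28 higher, 10 to 14 lower). For Ad-JP2 against Ad-GFP it gave 3 higher and 0 to 2 lower (median -0.05 to -0.03; related genes 3 to 6 higher, 0 to 1 lower), and for Ad-JP2 against Ad-shJP2 3 higher and 31 to 33 lower (median -0.80 to -0.77; related genes 14 to 16 higher, 24 to 25 lower). Between 34 and 36 members differed among the 3 groups. In Ad-JP2 against Ad-shJP2, Gins1 lost its call (limma adjusted p 0.054 to 0.133) without any library except Ad-JP2 replicate 1 or Ad-shJP2 replicate 3, and Rfc4 (0.052 to 0.126) without Ad-GFP replicate 3, Ad-JP2 replicate 1 or 3 or any Ad-shJP2 library. Calls were gained by Gmnn in that comparison without Ad-GFP replicate 1 (0.025) or 2 (0.046) or Ad-shJP2 replicate 2 (0.038), by Cdc45 (0.046) and Gins1 (0.019) in Ad-JP2 against Ad-GFP without Ad-GFP replicate 2 and Ad-JP2 replicate 1, and by Rfc4 in Ad-shJP2 against Ad-GFP without Ad-GFP replicate 1 (0.049).

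Same-numbered libraries of different groups did not deviate together (correlations of deviations between -0.113 and 0.110 over 9 pairs). These correlations cannot show whether same-numbered libraries came from the same culture or animal, which the labels do not say. With a replicate block, members higher in Ad-shJP2 numbered 31 and members lower in Ad-JP2 than in Ad-GFP 0. Depth limits Pola1 most, at about 16 to 99 reads a library. On the log2(TPM + 1) scale its differences had an SE of 0.10, and the largest SE among the members was that of Rfc5 (0.17).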
